A study of Mus musculus with 10 samples.

Results

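The ligands and receptors of axon guidance were examined in AtT20 cells in which *Creb3l1* had been knocked down. The genes were taken by symbol from the count table: numbered and lettered semaphorins, plexins, neuropilins, Eph receptors, ephrins, netrins, Slits, Robo receptors, *Unc5a* to *Unc5d*, *Dcc*, *Neo1*, *Rgma* and *Rgmb*. This gave 71 genes of the 53801 in the table, 36 ligands and 35 receptors. The rule uses symbols and no measured value, but it was written with earlier results of these data known. AtT20 (AtT20/D16v-F2) is a mouse corticotroph tumour line of the anterior pituitary. It had been stably transduced with lentivirus, either with a non-targeting shRNA (the control, 5 libraries) or with *Creb3l1* shRNA (5 libraries), where an shRNA is a short hairpin RNA that lowers its target message. Both groups therefore carry a lentiviral hairpin, and each group is 1 stable line with 1 hairpin. The study calls its replicates biological, and whether the libraries of a line came from separate cultures is not given in the sources used here, so p-values measure the spread between libraries of 1 line, and an effect of the knockdown cannot be told apart from a difference between the lines. Poly(A) RNA was sequenced and the deposited values were raw counts of reads per gene.

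*Creb3l1*, a transcription factor of the CREB3 family held in the membrane of the endoplasmic reticulum until it is cleaved, was low in every knockdown library. Its normalised count, the count scaled to a library of average size, was 3805, 3864, 3695, 3551 and 3531 in the control replicates 1 to 5. The knockdown replicates stood at 1093, 1133, 1014, 1159 and 1051, a log2 fold change of -1.76 ± 0.036 (SE, n = 5 and 5). A gene was called changed where the edgeR test gave an adjusted p below 0.01. Each control library held 17420698 to 21497750 counts and each knockdown library 18866520 to 22205107. Control replicate 3 stood apart in that the non-coding RNA *Gm42418* took 4.13% of its counts. Its chi-square over its degrees of freedom was 64.3 to 73.1 against each other control library, and those differed among themselves by 1.85 to 2.92. Knockdown replicate 2 also differed from its group, with a chi-square over its degrees of freedom of 5.47 to 9.23 against each of the other 4, which differed among themselves by 2.28 to 3.36, and without it 6026 genes were called in place of 5837. The corticotroph markers *Pomc*, *Tbx19*, *Neurod1*, *Pitx1* and *Pcsk1* were abundant, *Crhr1* was low (29.2 normalised counts in the control and 26.9 in the knockdown) and *Avpr1b* had none. These 7 markers, mostly *Pomc*, summed to 150424 to 161539 normalised counts in the control and 108547 to 115408 in the knockdown. They did not move together, since *Pomc* (-0.51 on the log2 scale), *Pcsk1* (-0.46) and *Tbx19* (-0.27) fell while *Neurod1* (0.62) and *Pitx1* (0.36) rose, and the part of these movements in the results was not tested. Of 12 markers of other pituitary cells, *Prl*, *Tshb*, *Fshb* and *Pou1f1* were at 0, and the list summed to 218 to 282 normalised counts in the control and 232 to 282 in the knockdown libraries, with *Sox2* higher (0.33, adjusted p = 0.0048), *Nr5a1* not called (-0.32) and *Pax7*, too low to test, at 14.5 and 5.90 normalised counts. Of 6 neuronal and glial markers, *Tubb3* and *Mbp* made up nearly all of the sum. The sum was 11648 to 11872 in the control and 10983 to 12182 in the knockdown. *Rbfox3*, too low to test, was at 5.60 normalised counts in the control and 11.0 in the knockdown, and *Gfap*, *Slc17a6* and *Gad1* were near 0. Of 5 fibroblast and endothelial markers, *Cdh5* was at 0 and the sum, mostly *Col1a1*, was 830 to 1165 in the control and 950 to 1688 in the knockdown. Neither *Col1a1* (0.38, adjusted p = 0.032) nor *Col1a2* (0.41, adjusted p = 0.42) passed the threshold, *Pecam1* fell from 13.8 to 6.41 normalised counts (-1.08, adjusted p = 0.0063), and their part in the results was not tested. In bulk RNA of this kind, fewer cells that express a gene and less of its RNA per cell cannot be told apart.

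Axon guidance molecules are secreted or membrane-bound cues and the receptors that read them at the growing tip of a neurite, where they steer the actin cytoskeleton towards or away from a source. Semaphorins bind plexins, the secreted class 3 semaphorins through neuropilins. Ephrins bind Eph receptor tyrosine kinases on a neighbouring cell, netrins bind Dcc, neogenin and Unc5 receptors, repulsive guidance molecules bind neogenin, and Slits bind Robo receptors. Outside the nervous system the same families take part in cell contact, vessel growth and secretion, and endocrine cells are known to use several of them.

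The factor encoded by *Creb3l1* is known to bind G-box sequences, so the promoters of the guidance genes were searched for the words GACGTG and CACGTG on both strands. The words share ACGTG but cannot lie on the same 6 bases in the same orientation. RefSeq promoters (GRCm38.p6, 250 bases before and 50 after a transcript start) were matched for 60 of the 71 genes, 78 promoters in all. GACGTG was present in 8 of these 78 promoters (10.3%), against 6.38% of the 32851 promoters of all genes, and CACGTG in 5 of 78 (6.41%), against 7.15% of all. Among the 23 matched guidance genes that changed with knockdown, GACGTG was found in the promoters of *Ephb6*, which was higher, and *Sema4g*, which was lower, and CACGTG in that of *Sema6d*, which was higher. By gene this is 8.70% of the 23 for GACGTG, beside 7.15% of all genes with a promoter, and 4.35% for CACGTG, beside 8.09%. The windows around these 3 matches are shown because they are the ones that belong to changed genes, with the word in capitals and the gene's own strand written 5′ to 3′. They lie at chr6:41605261-41605303 (plus strand), chr2:124089922-124089975 (plus strand) and chr19:44989295-44989348 (plus strand) of GRCm38.p6. In *Ephb6* and *Sema4g* the word is on the opposite strand and so reads CACGTC.
*Ephb6*: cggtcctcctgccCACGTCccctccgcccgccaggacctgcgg
*Sema6d*: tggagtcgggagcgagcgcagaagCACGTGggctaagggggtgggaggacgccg
*Sema4g*: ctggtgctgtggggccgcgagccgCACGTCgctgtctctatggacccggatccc
The word begins 237 bases before the start in *Ephb6*, 23 before it in *Sema6d* and 25 before it in *Sema4g*. The matches are a description of these letters and do not show that the factor binds there. The changed genes with a match moved in both directions, and most changed genes had neither word in this window.

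Many of the guidance genes were expressed in these cells. Counts were high enough to test 44 of the 71 genes, and 7 had no count in any library (*Sema3e*, *Epha3*, *Epha6*, *Ephb1*, *Unc5d*, *Robo2* and *Robo4*). The other 20 did not pass the filter on low counts and had at most 19 reads in a library. Levels between genes were compared as RPKM, normalised counts per kilobase of exon, scaled to library size. The highest level was that of *Plxnb2*, a receptor of class 4 semaphorins, at 49.9 ± 1.43 RPKM in the control and 51.3 ± 1.70 in the knockdown (SD, n = 5). It was followed in the control by the netrin receptor *Unc5a* (33.0), the Eph receptor *Ephb2* (24.4), the ephrin *Efna2* (21.8), *Unc5b* (20.8), *Neo1* (20.02), the netrin *Ntn4* (19.4) and the semaphorin *Sema4c* (19.3), and the last 5 of these lay within 1 SD of their neighbours in this order. Slits and Robo receptors were lowest as families, with a summed level of 0.227 RPKM for the 3 Slits and 0.152 RPKM for the 4 Robo receptors in the control.

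**Figure D1:**
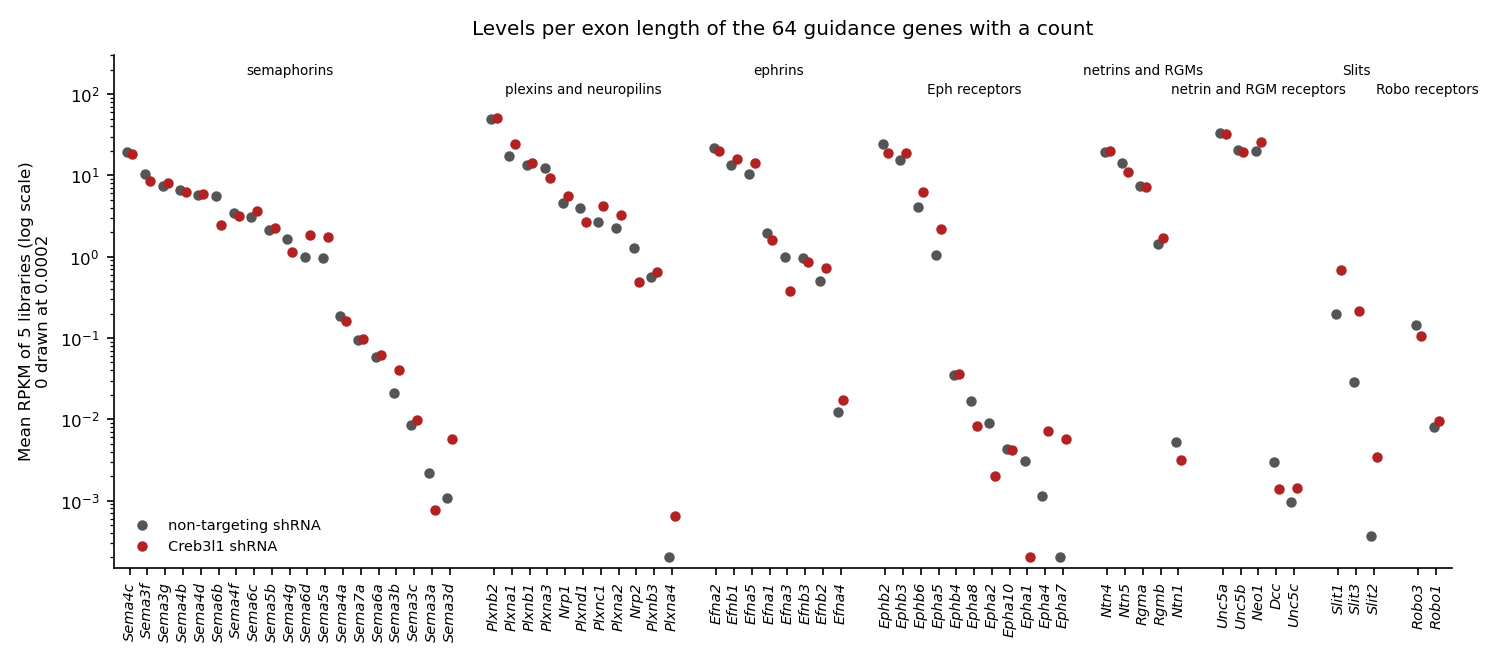
Mean level (RPKM, log axis) of the 64 guidance genes with a count, in the non-targeting control (grey) and the *Creb3l1* shRNA line (red), each point the mean of 5 libraries, with genes ordered by level within each family and a mean of 0 drawn at 0.0002. Each family except the Slits and Robo receptors has members above 10 RPKM, *Plxnb2* is highest at 49.9 in the control, and *Slit1* and *Slit3* stand higher in red.

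Of the 44 guidance genes tested, 26 changed with *Creb3l1* knockdown (edgeR quasi-likelihood test, adjusted p under 0.01), 16 of them higher and 10 lower. That is 59.1% of those tested, beside 40.7% of all 14336 genes tested, of which 20.6% were higher and 20.1% lower. Genes with more reads were called more often, and 11 of 18 guidance genes with a mean of 300 to 1000 normalised counts were called, beside 42.7% of all genes in that range. At 1000 to 3000 counts it was 6 of 10, beside 51.8%, and above 3000 counts 3 of 4, beside 58.3%. At 100 to 300 counts it was 2 of 3, beside 36.3%, and up to 100 counts, with *Slit3* included, 4 of 9, beside 20.4%. The median of the mean normalised counts was 575 over the guidance genes tested and 594 over all genes tested. The median log2 fold change was 0.041 over the 44 guidance genes and -0.0025 over all genes, and the median size regardless of direction was 0.30 and 0.15. Changes of at least 1.5-fold were seen in 10 guidance genes, 7 higher and 3 lower, and in 7.73% of all genes. The normalised counts of the control and knockdown libraries did not overlap in 26 of the 44, beside 36.0% of all genes tested. These are not quite the same 26, since *Unc5b* was called with overlapping libraries and *Rgmb* did not overlap but was not called (adjusted p = 0.0123). *Slit3* is in both sets, among the 16 higher and among the 7 past 1.5-fold, but passed the filter on low counts through the knockdown libraries alone. It could enter the test only because it was higher there, so its place in these counts is no evidence. Ligands and receptors each had 13 called genes, 8 higher and 5 lower, out of 26 ligands and 18 receptors tested. Of the 18 genes not called, fold changes on the log2 scale ran from -0.43 in *Robo3* to 0.23 in *Rgmb*.

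**Figure D2:**
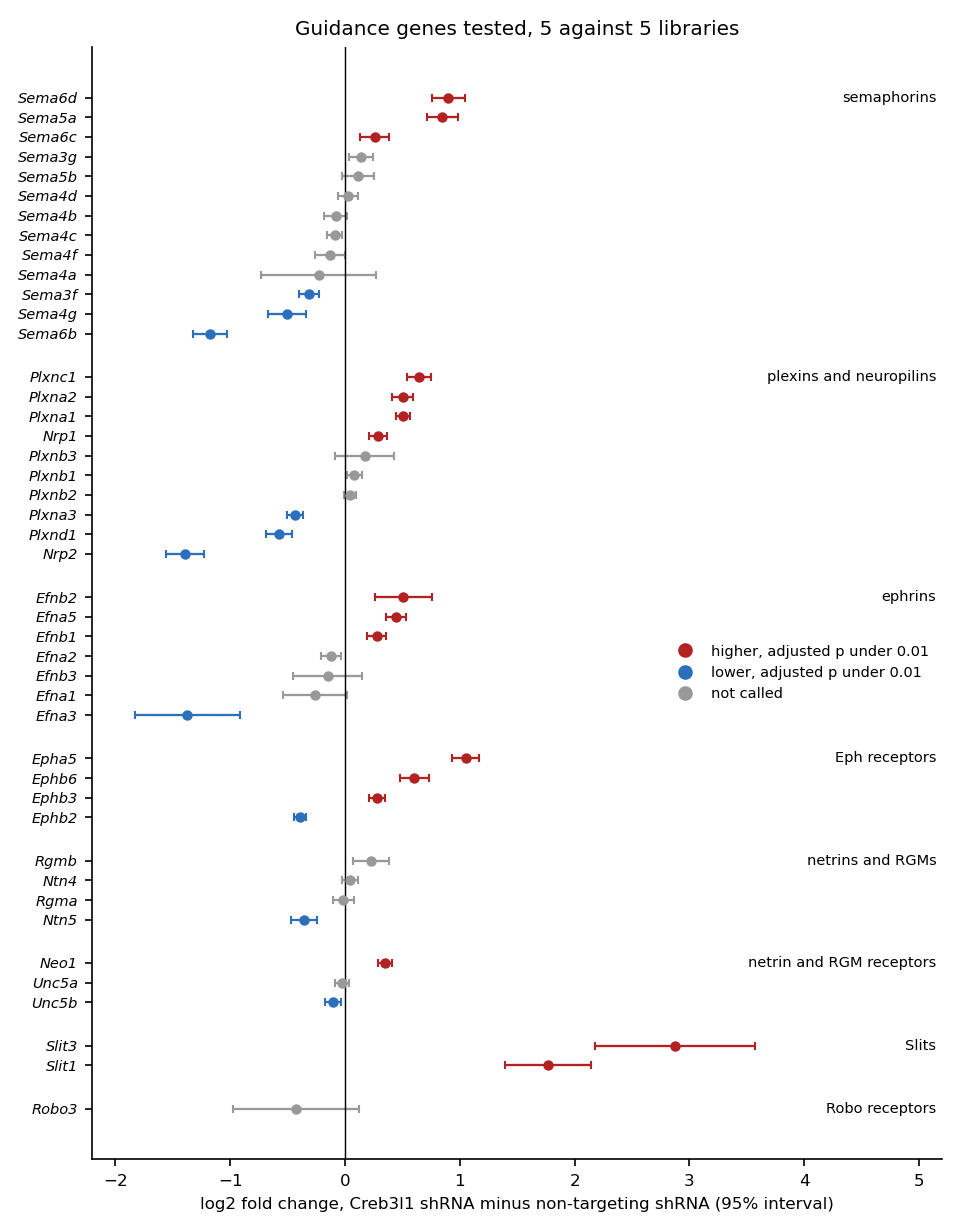
Log2 fold change of the 44 tested guidance genes, *Creb3l1* shRNA minus non-targeting, with 95% intervals from edgeR (5 against 5 libraries), grouped by family, with higher genes in red, lower genes in blue and genes not called in grey. Every family with more than 1 called gene, except the Slits, has genes on both sides of 0, with *Slit3* (2.88) and *Nrp2* (-1.39) at the ends. *Slit3* passed the filter on low counts through the knockdown libraries alone.

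Among the semaphorins, *Sema5a* and *Sema6d* rose and *Sema6b* fell by more than 1.5-fold. Of 20 genes, 13 were tested, 3 were higher and 3 lower (46.2% called, beside 40.7% of all genes tested). *Sema6b*, a transmembrane semaphorin, had 499, 452, 468, 389 and 447 normalised counts in control replicates 1 to 5 and 190, 214, 202, 209 and 182 in the knockdown. All knockdown libraries lay below all control libraries. The level was 2.26-fold lower, with a log2 fold change of -1.18 ± 0.073 (SE, adjusted p = 2.3e-17). *Sema6d*, of the same class and with the CACGTG window shown above, went the other way. It had 213, 241, 204, 208 and 193 normalised counts in the control and 382, 403, 407, 370 and 413 in the knockdown, without overlap, and the log2 fold change was 0.90 ± 0.070 (adjusted p = 3.4e-14). *Sema5a*, a transmembrane semaphorin with thrombospondin repeats, had 437, 379, 302, 356 and 342 in the control and 689, 687, 631, 619 and 653 in the knockdown. Here too the lines did not overlap, and the control libraries were spread more widely than those of the knockdown (log2 fold change 0.85 ± 0.066, adjusted p = 3.4e-12). *Sema6c*, the other class 6 gene tested, rose from 371 to 444 normalised counts (0.26 on the log2 scale).

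Smaller decreases were found in *Sema4g* and *Sema3f*. *Sema4g*, with a GACGTG window shown above, fell from 286 to 201 normalised counts (log2 fold change -0.50). *Sema3f*, a secreted ligand of neuropilin 2, fell from 1100 ± 45.4 to 889 ± 68.5 (-0.31, adjusted p = 1.5e-07). *Sema4c*, the most abundant semaphorin per length, had 1896, 1843, 1713, 1807 and 1718 normalised counts in the control and 1657, 1712, 1714, 1692 and 1675 in the knockdown. The lines overlapped at their edges and the difference was not called (-0.09 on the log2 scale, 95% interval -0.15 to -0.02). A non-coding transcript on the other strand, with 475 and 455 reads in the 2 lines, shares 7.27% of the exon bases of *Sema4c*. The other tested class 4 genes, *Sema4a*, *Sema4b*, *Sema4d* and *Sema4f*, together with *Sema3g* and *Sema5b*, had log2 fold changes between -0.23 and 0.14 and were not called. The interval was widest for *Sema4a*, from -0.73 to 0.27, at about 19 normalised counts. The untested *Sema7a* had 63 reads over all libraries, *Sema3b* 30, *Sema3c* 13, *Sema3d* 6 and *Sema3a* 4, and *Sema6a* had at most 19 in a library.

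The semaphorin receptors changed in both directions, with 4 of 10 tested genes higher and 3 lower (70% called, beside 40.7% of all genes). The largest difference was in *Nrp2*, neuropilin 2, a co-receptor for class 3 semaphorins and for vascular endothelial growth factors. It had 316, 307, 304, 279 and 319 normalised counts in the control and 112, 110, 132, 117 and 109.1 in the knockdown. The highest knockdown library was far below the lowest control library, and *Nrp2* was 2.63-fold lower (log2 fold change -1.39 ± 0.082, adjusted p = 4.7e-18). *Nrp1*, its paralogue, rose from 909 ± 25.1 to 1111 ± 33.1 normalised counts (0.29 on the log2 scale). *Plxnc1*, the plexin that binds *Sema7a* protein, had 458, 419, 485, 423 and 467 in the control and 759, 721, 711, 656 and 679 in the knockdown, without overlap (0.65 ± 0.052, adjusted p = 7.5e-14). Its ligand gene *Sema7a* was too low to test.

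The A-type plexins, the signalling partners of neuropilins, were unlike each other. *Plxna1* rose from 3177 ± 145 to 4501 ± 137 normalised counts and *Plxna2* from 796 ± 44.8 to 1129 ± 72.5, both by 0.50 on the log2 scale. *Plxna3* fell from 1989 ± 60.8 to 1470 ± 63.4 (-0.44), and *Plxna4* had 1 read in all. Exons of the antisense gene *Gm26811* cover 10.7% of *Plxna1*, and this gene had 0 counts in every library. *Plxnd1*, a receptor for *Sema3e* protein, fell from 594 to 399 (-0.58), while *Sema3e* itself had no count. *Plxnb2* had 7938, 8136, 7612, 7629 and 7730 normalised counts in the control and 7974, 8488, 7963, 7789 and 7948 in the knockdown, and the lines overlapped. Its log2 fold change was 0.04 with a 95% interval of -0.01 to 0.09, and *Plxnb1* (0.08) and *Plxnb3* (0.17) were also not called.

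Of 7 tested ephrins, 3 were higher and *Efna3* was lower (57.1% called, beside 40.7% of all genes tested). *Efna3*, a lipid-anchored ephrin, had 70.4, 43.4, 48.9, 51.6 and 30.2 normalised counts in the control and 13.8, 26.8, 14.9, 23.7 and 15.4 in the knockdown. The control libraries varied more than those of the knockdown, and the highest knockdown library was only slightly below the lowest control library. The fall was 2.59-fold (log2 fold change -1.37 ± 0.23, adjusted p = 2.5e-06). An antisense transcript, *Gm15998*, overlaps 14.1% of the exon bases of *Efna3* and had 98 reads in the control and 70 in the knockdown libraries together. *Efna1*, *Efna3* and *Efna4* are neighbours on chromosome 3 of GRCm38, between 89271733 and 89338028. *Efna1* had 72.0 ± 8.73 and 60.1 ± 9.52 normalised counts and was not called (-0.26, 95% interval -0.54 to 0.02), and *Efna4* had 5 reads in all.

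*Efna5* rose from 863 ± 56.9 to 1172 ± 25.9 normalised counts (0.44 on the log2 scale). The transmembrane ephrins *Efnb1* (928 to 1126, 0.28) and *Efnb2* (70.9 to 100.7, 0.51) rose as well, and *Efnb3* was not called (-0.15, 95% interval -0.45 to 0.15). *Efna2*, the most abundant ephrin per length, had 969, 1041, 943, 866 and 889 in the control and 865, 863, 892, 872 and 834 in the knockdown. The ranges overlapped and the difference was not called (-0.12, adjusted p = 0.020).

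Only 4 of 14 Eph receptor genes were tested, and all 4 changed, 3 upwards and *Ephb2* downwards. Of all genes tested 40.7% were called, and 42.7 to 58.3% in the ranges of counts where these 4 lie. *Epha5*, a receptor of A-type ephrins best known from the brain, had 349, 392, 347, 339 and 367 normalised counts in the control and 781, 677, 789, 670 and 800 in the knockdown. It was 2.07-fold higher without overlap (log2 fold change 1.05 ± 0.058, adjusted p = 6.7e-19). *Ephb6*, which lacks kinase activity and has the GACGTG window shown above, had 328, 332, 302, 296 and 312 in the control and 458, 521, 493, 483 and 436 in the knockdown (0.60 ± 0.062, adjusted p = 6.7e-11). *Ephb3* rose from 2113 ± 46.6 to 2568 ± 143 (0.28). *Ephb2*, the most abundant Eph receptor per length in the control, had 6377, 6319, 6208, 6005 and 6250 in the control and 4940, 4818, 4708, 4669 and 4662 in the knockdown. Its libraries were tight within each line and well apart between them (-0.39 ± 0.026, adjusted p = 4e-16). The summed level of the Eph receptors was close in both lines, 45.3 RPKM in the control and 46.2 in the knockdown. *Ephb4* had 32 reads over all libraries, *Epha8* 12, and *Epha1*, *Epha2*, *Epha4*, *Epha7* and *Epha10* between 1 and 7 each.

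Netrin genes and their receptors included several of the most abundant guidance genes, and most of them moved little. Regardless of direction, the median log2 fold change was 0.13 for the netrins and repulsive guidance molecules and 0.10 for their receptors. *Unc5a*, a netrin receptor that mediates repulsion, had 2821, 2877, 2741, 2788 and 2712 normalised counts in the control and 2661, 2950, 2673, 2691 and 2700 in the knockdown. The lines overlapped, and the log2 fold change was -0.03 with a 95% interval of -0.09 to 0.03. *Ntn4*, a laminin-related netrin of basement membranes, had 1527, 1422, 1522, 1423 and 1457 in the control and 1533, 1501, 1554, 1499 and 1477 in the knockdown, and was not called either (0.04, 95% interval -0.03 to 0.11). *Ntn5* fell from 642 ± 30.4 to 502 ± 47.8 normalised counts (-0.36, adjusted p = 9.6e-07). Exons of *Sec1* on the opposite strand cover 23.4% of *Ntn5*, and *Sec1* had 1645 reads in the control and 1471 in the knockdown libraries together. How the counting treated strand is not given in the sources used here, and its part in the fall of *Ntn5* was not tested.

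*Neo1*, which encodes neogenin, the receptor shared by netrins and repulsive guidance molecules, rose from 3538 ± 134 to 4509 ± 214 normalised counts (0.35 on the log2 scale, adjusted p = 2.5e-12). *Unc5b* was called with a small decrease, from 2640 ± 146 to 2459 ± 73.8 (-0.10, adjusted p = 0.0091), but its lines overlapped and the call was lost in 10 of 18 alternative fits. *Rgma*, a membrane-anchored ligand of neogenin, had 871, 832, 869, 747 and 815 in the control and 792, 857, 851, 791 and 796 in the knockdown. The lines overlapped (-0.02, 95% interval -0.11 to 0.07). *Rgmb* had 223 ± 21.2 and 261 ± 10.0 and narrowly missed the threshold. *Dcc*, the classical attractive netrin receptor, had 6 reads over all libraries, *Ntn1* 5 and *Unc5c* 5.

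The Slit ligands gave the largest fold changes, both upwards and from low levels. *Slit1* had 29.2, 15.9, 17.1, 25.4 and 31.1 normalised counts in the control and 91.0, 86.7, 74.5, 55.9 and 103.6 in the knockdown. The libraries varied within each line but the lowest knockdown library was above the highest control library. *Slit1* was 3.41-fold higher (log2 fold change 1.77 ± 0.19, adjusted p = 2.1e-10). *Slit3* rose from 3.57 ± 2.40 to 26.5 ± 3.67 normalised counts (2.88 ± 0.35, adjusted p = 3.4e-09), with 17 reads in the 5 control libraries and 135 in the 5 knockdown libraries. It passed the filter on low counts through the knockdown libraries alone, so it could enter the test only because it was higher there. *Slit2* had 10 reads in all. Per length the Slits stayed far below the other families, at a summed 0.904 RPKM in the knockdown. Of the Robo genes, *Robo3* had 19.95 ± 5.08 and 14.6 ± 5.45 normalised counts and was not called (-0.43, 95% interval -0.98 to 0.12), and *Robo1* had 29 reads over all libraries.

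**Figure D3:**
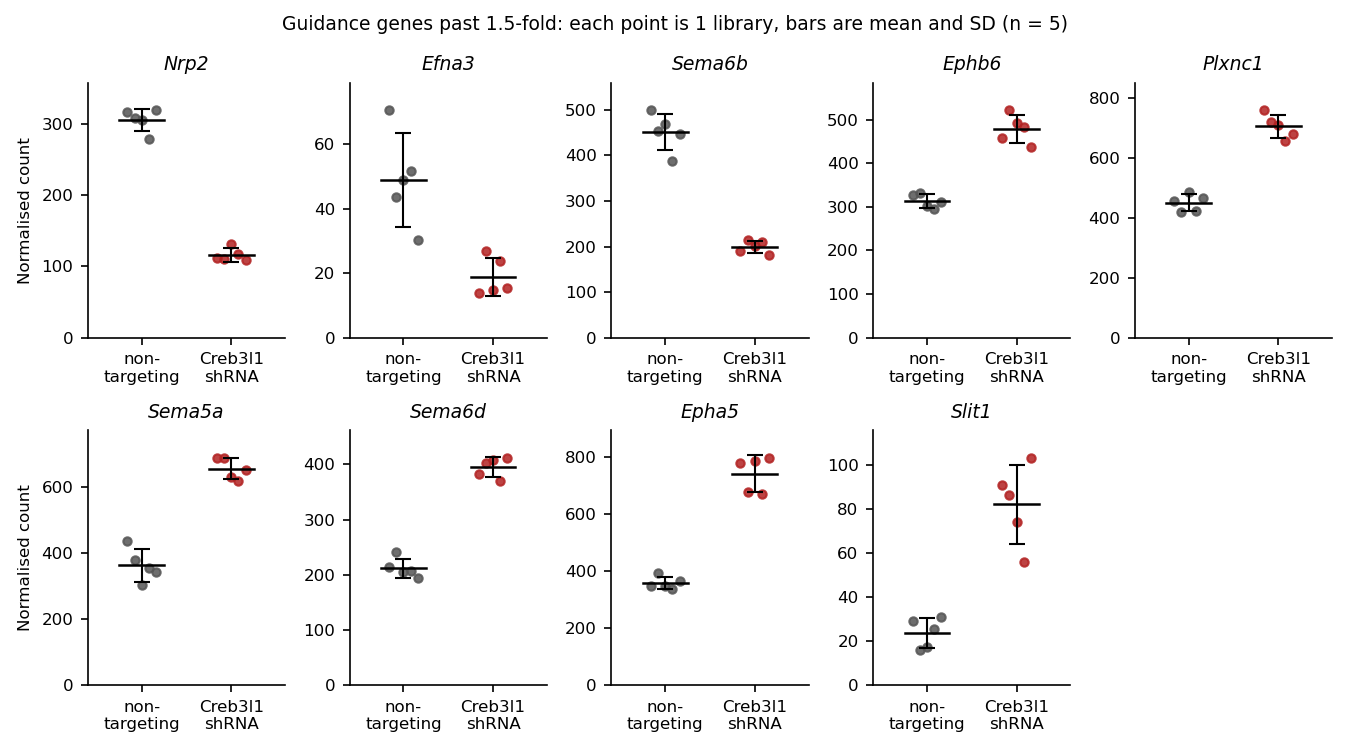
Normalised counts in every library for the guidance genes that changed at least 1.5-fold with a mean of 20 or more, in the control (grey) and the *Creb3l1* shRNA line (red), with bars for mean and SD (n = 5) and each axis starting at 0. The lines are apart in every panel, most narrowly in *Efna3*, where the lowest control library (30.2) is just above the highest knockdown library (26.8).

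Within several families, some genes that share ligands or partners differed in their change. Their balance was described as ratios of RPKM within each library. Others moved in the same direction, such as *Plxna1* and *Plxna2*, or *Efnb1* and *Efnb2*. The pairs were chosen after the values were seen and so were not tested. *Nrp2* was 0.277 ± 0.0127 of *Nrp1* in the control libraries and 0.0866 ± 0.00893 in the knockdown. The ratio of *Sema6d* to *Sema6b* was 0.161 to 0.201 in the control and 0.663 to 0.853 in the knockdown. *Plxna1* made up 52.8 to 55.4% of the summed level of A-type plexins in the control and 65.7 to 66.9% in the knockdown, while *Plxna3* went from a mean of 38.9% to 24.9%. *Ephb2* was 53.8% ± 0.251 of the summed Eph receptor level in the control and 40.3% ± 1.04 in the knockdown. It was 1.55 times the level of *Ephb3* in the control and 0.978 times in the knockdown, so that the most abundant Eph receptor per length was no longer the same gene in every library. *Efna5* was 0.486 of *Efna2* in the control and 0.716 in the knockdown, and *Neo1* was 0.372 and 0.493 of *Unc5a* and *Unc5b* together. In each of these ratios the 2 lines did not overlap. The pairs were chosen with these values known, so the separation is no evidence in itself.

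**Figure D4:**
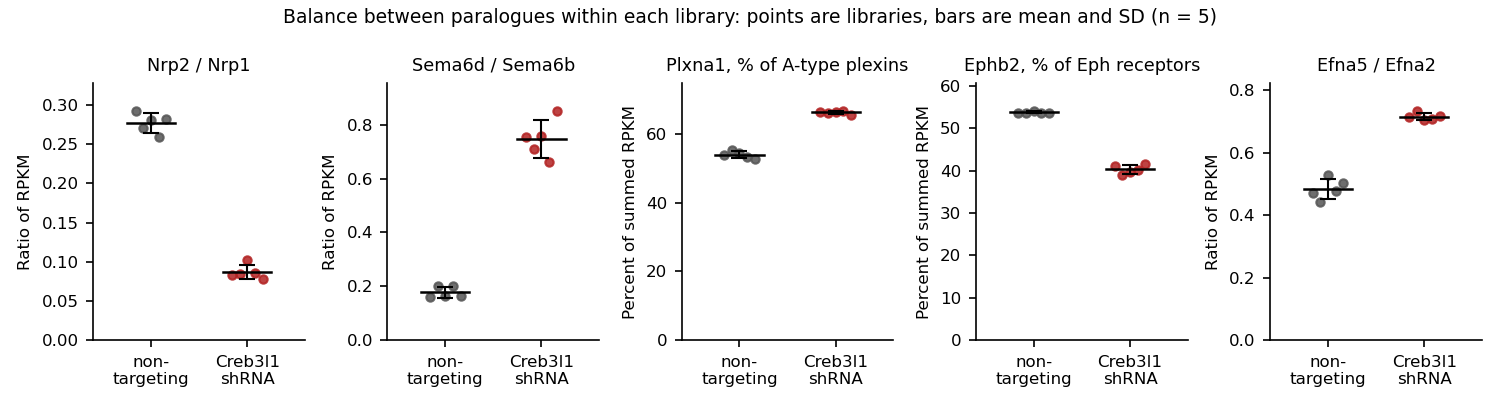
Balance between related guidance genes in each library, as ratios of RPKM or as percent of summed RPKM (each axis from 0), in the control (grey) and the *Creb3l1* shRNA line (red), with bars for mean and SD (n = 5). The lines are apart in all 5 panels, with *Nrp2* over *Nrp1* falling from a mean of 0.277 to 0.0866 and *Sema6d* over *Sema6b* rising from 0.177 to 0.747. The genes compared were chosen after the values were seen.

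Other genes of the pathway were examined from lists of intracellular effectors, further cues and co-receptors, and enzymes of shedding and heparan sulfate synthesis. Of 94 genes, 70 were tested and 53 were called, 34 higher and 19 lower (75.7%, beside 40.7% of all genes). Of the 70, 12 were called and passed 1.5-fold, beside 7.73% of all genes tested. The lists were chosen with earlier results of these data known, so these shares are no independent evidence about the pathway. Many of the listed genes also have high counts: of those with a mean of 1000 to 3000 normalised counts 23 of 29 were called, beside 51.8% of all genes in that range, and above 3000 it was 8 of 9, beside 58.3%. At 300 to 1000 counts it was 14 of 20, beside 42.7%, and at 100 to 300 counts it was 3 of 4, beside 36.3%. Up to 100 counts, with *Ndst4* included, it was 5 of 8, beside 20.4%. Among the effectors, which carry the signal from receptor to actin, 33 of 44 tested genes were called, 23 higher and 10 lower. Among the largest called changes were those in *Mical1*, an actin-oxidising enzyme that acts after plexins, which rose from 441 to 1164 normalised counts (1.40 on the log2 scale), and in *Srgap3*, a GTPase-activating protein linked to Slit and Robo signalling, which rose from 13.6 to 35.1 (1.32). Among the further cues and co-receptors 7 of 9 were called, led by *Dscam*, a netrin co-receptor (0.49), *Cdon* (0.41) and *Flrt1* (-0.41). Of the shedding and heparan sulfate genes 13 of 17 were called, 7 higher and 6 lower. *Hs6st1*, which adds sulfate to the heparan chains that Slits and other cues bind, rose from 2484 to 7072 normalised counts (1.51). *Ndst4* rose from 3.12 to 17.1 (2.45), with 15 reads in the control and 89 in the knockdown libraries, and like *Slit3* it passed the filter on low counts through the knockdown libraries alone. *Ndst4* could enter the test only because it was higher there. It is among the genes counted above as called, higher and past 1.5-fold, and its place in these counts is no evidence. *Hs6st3* fell from 64.7 to 39.9 (-0.71).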

How the data were processed

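RNA was measured in 10 libraries, 5 per stable line, grouped by the sample labels. Stranded libraries of poly(A) RNA were sequenced as pairs of 75 bases and aligned with STAR to GRCm38, and the authors deposited the featureCounts counts per gene, without normalisation. The versions of STAR and featureCounts and the strand setting are not given in the sources used here.

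From these counts, genes were kept by edgeR's filterByExpr (14336), libraries were scaled by TMM, and the quasi-likelihood test with a robust prior compared the lines without covariates (R 4.3.3, edgeR 4.0.16, limma 3.58.1, with DESeq2 1.42.0 as an alternative). P-values were adjusted by Benjamini and Hochberg over all genes tested, at a threshold of 0.01. Standard errors came from the fold change and its F statistic. RPKM used union exon lengths from a GENCODE annotation of GRCm38, an earlier release than the authors'. Symbols were paired with 53620 of 53801 identifiers, and 1 listed pathway symbol matched none. The test was run on simulated counts in which every gene had the same spread beyond counting error. Spread that differs between genes was not covered.

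The genes, the lists and the rule for naming were chosen with earlier results of these data known. Values in every library are given for called genes with at least 1.5-fold change and a mean of 20 normalised counts, and for the most abundant gene per length among semaphorins, plexins with neuropilins, ephrins, Eph receptors, netrins with their receptors, Slits with Robo receptors, and repulsive guidance molecules. *Ntn4* was added after its values were seen. Of the other pathway lists, the 3 largest called changes were named, except 1 that is not reported here. Alternatives were DESeq2, RLE factors, totals alone, no filter, a floor of 10 counts in each library, a block for the replicate number, 1 library left out at a time, thresholds of 0.05 or of 1.5-fold, GC and length offsets and, chosen after seeing the data, no robust prior.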

Additional observations from a re-analysis of the deposited data

Results flagged for a closer look

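In 90 groups of 5 libraries (each tested guidance gene, *Creb3l1* included, in each line), Dixon's ratio set the extreme library against the rest, and 6 groups exceeded 0.71, where chance alone would flag about 1 in 20, or 4.5. In the control line, *Sema3g* was 793 normalised counts in replicate 5 and 639 to 671 in the others, *Sema4d* was 984 in replicate 2 and 871 to 900 in the others, and *Efnb1* was 1010 in replicate 2 and 894 to 914 in the others. In the *Creb3l1* shRNA line, *Sema4f* was 312 in replicate 5 and 345 to 355 in the others. Replicate 2 of that line was high for *Plxnb2*, at 8488 against 7789 to 7974, and for *Unc5a*, at 2950 against 2661 to 2700. Without control replicate 5, *Sema3g* was called higher, with a log2 fold change of 0.21.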

How the results depend on the processing

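Of the 26 called guidance genes, 25 were called in the same direction in every alternative fit in which they were tested, and *Slit3* was not tested where at least 10 counts in every library were required. The exception was *Unc5b*, lost with DESeq2, library totals, no robust prior and 7 of the 10 libraries left out in turn. The number called was 25 with DESeq2, 26 with RLE factors or library totals, 28 without a filter, 25 with at least 10 counts in every library, 27 with offsets for GC content and length, 25 without the robust prior, 31 at an adjusted p under 0.05, and 25 to 28 with 1 library left out. A threshold of 1.5-fold left 10 guidance genes (7 higher and 3 lower) and 12 other pathway genes. With the replicate number as a block 26 guidance genes and 52 other pathway genes were called and no call on a guidance gene changed. The correlations of same-numbered libraries were -0.062 to 0.038, so the numbers did not pair the libraries. These correlations are not of the gene levels themselves, which were close between the lines (median size of the log2 fold change 0.15 over all genes tested). The log2 fold change of Rgma, not called at -0.02, changed sign with the offsets (0.029) and without control replicate 1 (0.00668; -0.051 to 0.00668 with each library left out in turn), and the cause was not tested. *Sema3g*, *Rgmb* and *Efna2* were called in 3, 3 and 2 fits. Depth limits the Slits, *Robo3*, *Sema4a* and the genes that were not tested, for which counting error is large, and no value here bears on protein.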

Other observations

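*Rock1* and *Rock2*, kinases that act on actin and myosin after several guidance receptors, split the knockdown libraries. *Rock1* was 1454 normalised counts in replicate 2 of the *Creb3l1* shRNA line and 2153 to 2394 in the other 4, with the control at 1832 to 1987. *Rock2* was 2355 normalised counts in replicate 2 and 3109 to 3392 in the other 4, with the control at 2719 to 2901. This is the library in which *Plxnb2* and *Unc5a* stood high.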
